A study of Mus musculus with 8 samples.

Results

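The immediate early genes examined here were Fos, Fosb, Jun, Junb, Jund, Egr1, Egr2, Egr3, Atf3 and Ier2, 10 of the 24980 genes in the count table, chosen by name as genes that the dissociation of tissue can induce. All 10 had enough counts to enter the test, which covered 17582 genes. RNA-seq was made from mouse skeletal myogenic cells in 4 groups of 2 biological replicates. Freshly isolated teratoma-derived cells (TF) were myogenic progenitors that arose from embryonic stem cells in teratomas, the mixed-tissue tumors formed by injected pluripotent cells, and expanded teratoma-derived cells (TE) were such progenitors at passage 8. Freshly isolated satellite cells (SF) were the endogenous stem cells of adult skeletal muscle, and expanded satellite cells (SE) were such cells at passage 8. According to the study's methods, most of the work used teratomas grown from EGFP-labeled E14 embryonic stem cells in irradiated and cardiotoxin-injured leg muscles of immunodeficient, dystrophin-deficient mice. Other pluripotent lines were also used there, and the labels do not name the line behind the TF and TE libraries. The time from tissue to lysis, the enzymes used for dissociation, and the strain and exact age of the satellite cell donors are not given in the sources used here. Fresh and expanded cells differed both in how they were isolated and in their culture, and the design cannot tell these apart.

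Immediate early genes are transcribed within minutes of a stimulus because their promoters are held ready by factors already bound there. Serum response factor with its ELK partners binds CArG boxes, CREB binds cyclic AMP response elements (CREs), and kinases of the ERK, JNK and p38 cascades switch these factors on without new protein synthesis. Most of the products are transcription factors in their own right. FOS, JUN and ATF proteins pair through leucine zippers to form AP-1, EGR proteins bind GC-rich sites through zinc fingers, and IER2 is a small nuclear protein. In muscle, enzymatic release of satellite cells from the niche is a known stimulus for these genes.

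The 250 bases before the transcription start are shown for the 4 members in which a searched motif was found, since these are among the sequences on which such factors act. They come from the RefSeq promoters of GRCm38.p6. Entries for 7 of the 10 members were searched, and Egr1, Egr3 and Ier2 were not searched. The Fos promoter lies at chr12:85473640-85473889 (plus strand) and the Fosb promoter at chr7:19310046-19310295 (minus strand). The Egr2 promoter lies at chr10:67537619-67537868 (plus strand), the one of 5 annotated starts nearest the principal transcript, and the Atf3 promoter at chr1:191183334-191183583 (minus strand). Each is written 5′ to 3′ with the matched motif in capitals.
Fos promoter: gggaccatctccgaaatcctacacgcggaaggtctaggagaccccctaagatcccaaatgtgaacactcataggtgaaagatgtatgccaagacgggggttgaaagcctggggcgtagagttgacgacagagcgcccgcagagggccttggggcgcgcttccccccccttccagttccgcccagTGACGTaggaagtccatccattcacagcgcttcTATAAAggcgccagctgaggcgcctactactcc
Fosb promoter: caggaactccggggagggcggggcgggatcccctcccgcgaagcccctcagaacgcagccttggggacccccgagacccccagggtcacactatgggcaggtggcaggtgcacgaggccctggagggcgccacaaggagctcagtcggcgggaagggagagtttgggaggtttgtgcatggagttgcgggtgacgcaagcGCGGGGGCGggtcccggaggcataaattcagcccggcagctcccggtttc
Egr2 promoter: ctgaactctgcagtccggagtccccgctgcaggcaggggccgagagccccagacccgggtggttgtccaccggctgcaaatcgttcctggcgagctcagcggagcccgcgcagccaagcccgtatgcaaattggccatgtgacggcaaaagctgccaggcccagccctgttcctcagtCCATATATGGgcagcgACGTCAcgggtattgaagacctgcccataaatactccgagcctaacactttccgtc
Atf3 promoter: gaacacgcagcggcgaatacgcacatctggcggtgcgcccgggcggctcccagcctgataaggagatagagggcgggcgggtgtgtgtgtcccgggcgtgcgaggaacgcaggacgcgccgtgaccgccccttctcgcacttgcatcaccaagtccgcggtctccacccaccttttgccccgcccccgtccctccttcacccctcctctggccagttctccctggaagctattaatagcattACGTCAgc

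The capitals mark a CRE core (TGACGT) 66 to 61 bases before the Fos start and a TATA box (TATAAA) 33 to 28 bases before it. In Fosb they mark an EGR site (GCGNGGGCG) 50 to 42 bases before the start. In Egr2 they mark a CArG box 72 to 63 bases and a CRE core 56 to 51 bases before the start, and in Atf3 a CRE core 8 to 3 bases before the start. Both strands were searched, and the site in Egr2 and Atf3 reads ACGTCA, the same letters on the other strand. The CRE core was thus in 3 of the 7 member promoters and in 6.47% of 32851 promoters of the same length. The EGR site was in 4.7% of all promoters, the CArG box in 1.47% and the TATA box in 12.4%, against 1 of the 7 members for each. The AP-1 site (TGANTCA) was in 6.75% of all promoters and in 0 of the 7. The entries of Jun, Junb and Jund held none of these motifs. The Jund entry starts 1210 bases from the principal start of that gene, so the bases just before that principal start were not searched. Bases farther from the start than these entries were not searched. A motif absent from an entry can therefore still lie elsewhere near that gene. A match is a description of the sequence, and no binding was measured.

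All 10 members were higher in fresh than in expanded cells, in both origins. Together they took 1.20% to 1.31% of the counts in the TF libraries and 1.18% to 1.22% in SF, against 0.0700% to 0.0711% in TE and 0.0642% to 0.0659% in SE. The lowest of the 4 fresh libraries was above the highest of the 4 expanded ones for every member, which was the case for 19.3% of all tested genes. The narrowest gap was that of Ier2, whose lowest fresh level was 2.76 times its highest expanded level, and the widest was that of Fosb, at 1055 times. In bulk samples such as these, fewer cells of a type and less RNA per cell cannot be told apart.

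**Figure D1:**
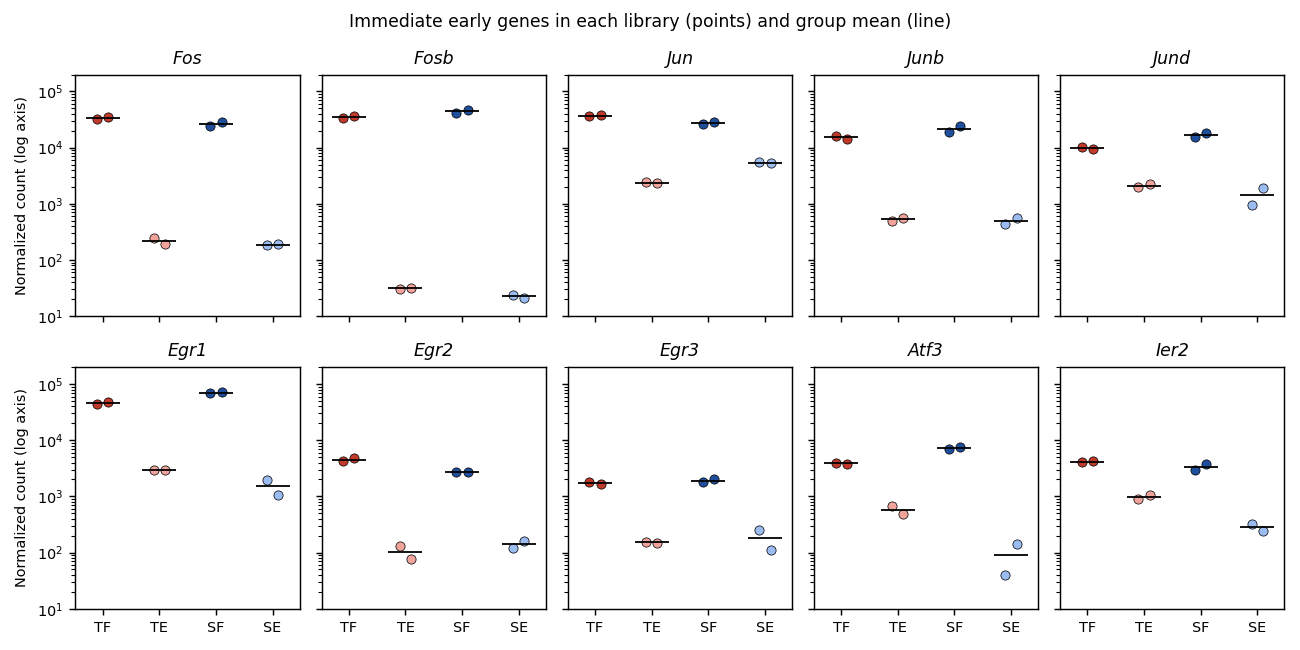
Normalized counts (log axis) of the 10 immediate early genes in the 8 libraries; each point is 1 library and the short line is the group mean. For every gene the 4 fresh libraries (TF, SF) lie above the 4 expanded libraries (TE, SE).

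Each difference was tested by edgeR (quasi-likelihood F test, all 8 libraries in the same model). A gene was called at an adjusted p (Benjamini-Hochberg) below 0.05 and a log2 fold change beyond 0.32 in either direction. In TF minus TE, 10 of 10 members were called higher, where 16.2% of all genes were called higher and 9.86% lower. In SF minus SE, 10 of 10 were called higher, where 19.8% of all genes were higher and 20.9% lower. Both calls together held for 9.81% of all genes. The median log2 fold change of the members was 3.89 in teratoma-derived cells, against 0.18 over all genes, and 4.66 in satellite cells, against 0.23. In the mean of both origins 27.8% of all genes were called higher and 22.4% lower, the members' median was 4.51 and that of all genes was 0.21. All 10 were above 0 in every expanded library.

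Depth and marker levels of other cells also differed between fresh and expanded libraries. The libraries held 11930961 to 21146632 counts, with the 4 fresh libraries below each expanded one, and in each group the 2 replicates lay further apart than sampling noise allows (chi-square per degree of freedom 11.7 to 87.2). The ribosomal RNA precursor Rn45s took 7.99% and 12.1% of the counts in TF and 17.0% to 21.3% in the other groups. The nuclear RNA Malat1 had 332812 and 378117 normalized counts in SF, 59468 and 147667 in SE, and 42829.6 to 49189 in the teratoma-derived libraries. SF replicate 1 had 22138 genes detected and SF replicate 2 had 17119. The part of these differences in the members' levels was not tested. All 9 myogenic markers were detected in every library. Their summed normalized count was 22280 to 27515 in TF, 51297 to 52755 in TE, 35207 to 43897 in SF and 60911 to 76652 in SE. This sum joins markers of opposite direction. The mean of both origins called 3 of the 9 higher in fresh cells and 6 lower, against 27.8% and 22.4% of all genes. Markers of other cells were higher in the fresh groups. The mean of both origins called 7 of 7 endothelial, 7 of 7 fibro-adipogenic and 6 of 6 tested haematopoietic markers higher, against 27.8% of all genes. In that order, TF minus TE called 6, 7 and 6 higher (16.2% of all genes), and SF minus SE 6, 6 and 4 (19.8%). The study's methods nonetheless describe a sort of teratoma cells for α7-integrin and VCAM-1 and against CD31 and CD45. Fibro-adipogenic markers summed to 237994 and 241772 in TF, 33295 and 58386 in SF, 144 to 351 in TE and 3156 to 7692 in SE, with Col1a1 holding most of this signal. Endothelial markers summed to 1414 to 4394 in TF, 6240 to 7640 in SF and 33.2 to 119 in the expanded libraries, where Kdr and Emcn were at 0. Haematopoietic markers summed to 6158 in TF replicate 1, 593 in TF replicate 2, 690 to 908 in SF and 47.5 to 167 in the expanded libraries, where Ptprc and Adgre1 were at 0. The TF replicates thus differed more in blood markers than the replicates of the other groups, while the members summed to 186124 and 196610 normalized counts in them. Schwann cell markers summed to 219 to 1630 in fresh and 71.4 to 161 in expanded libraries and pluripotency markers to 0 to 201 over all 8. Of 6 pericyte and smooth muscle markers, 5 were called higher in fresh cells and 1 lower in the mean of both origins, against 27.8% and 22.4% of all genes. Their sums, 15897 to 17725 in fresh and 6727 to 23796 in expanded libraries, held mostly Acta2 in TE (22589 and 22390.3), where Rgs5 and Kcnj8 were at 0. The summed markers of differentiated muscle fibres were lower in fresh libraries (4083 to 8720 against 24002 to 69519), but not every marker was. The mean of both origins called 4 of these 7 lower and 0 higher, against 22.4% and 27.8% of all genes. TF minus TE called 3 lower and 0 higher (9.86% and 16.2% of all genes). SF minus SE called 4 lower and 1 higher (20.9% and 19.8%). The part of these other cells in the members' levels was not tested.

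**Figure D2:**
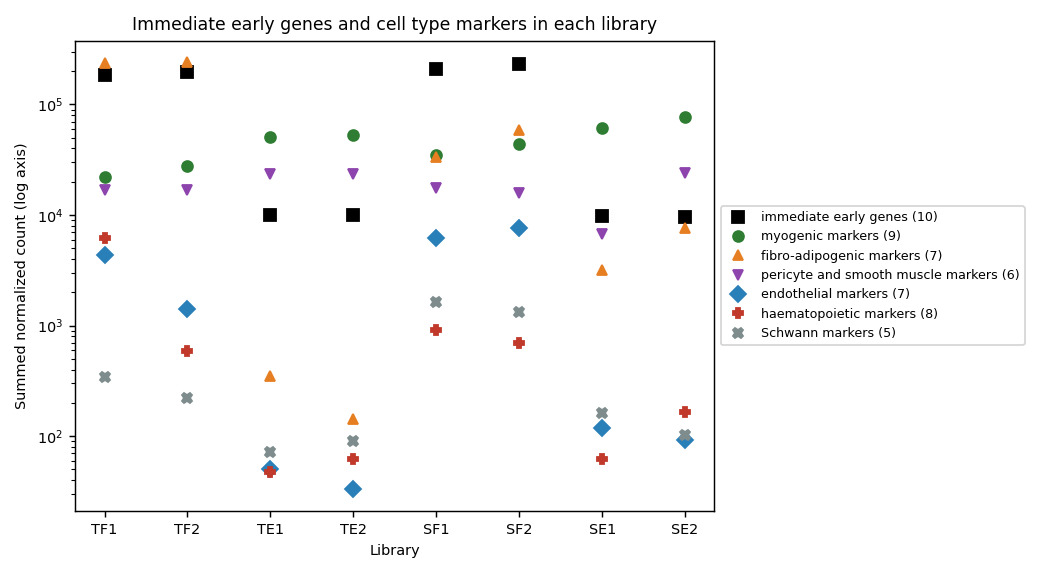
Summed normalized counts (log axis) of the marker lists in the 8 libraries, beside the sum of the 10 immediate early genes. The fibro-adipogenic sums were 237994 and 241772 in TF and 144 to 351 in TE, and the immediate early sums were 186124 to 234054 in fresh and 9641 to 10058 in expanded libraries.

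Fos and Fosb had the largest log2 fold changes of the 10. Fos (chr12:85473890-85477273, plus strand, GRCm38), the founding partner of JUN in AP-1, had 32693 and 35785 normalized counts in TF and 246 and 189.6 in TE. It had 24695 and 28541 in SF and 187 and 189 in SE. Fresh levels were therefore at least 100.5 times the expanded ones, and both SE libraries lay just below both TE libraries. The log2 fold change was 7.24 (SE 0.275, edgeR adjusted p = 1.37e-06) in TF minus TE and 6.95 (SE 0.272, adjusted p = 1.26e-06) in SF minus SE.

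Fosb (chr7:19302696-19310051, minus strand), a FOS protein that also occurs as a shorter and more stable splice form, had 33356 and 36571 normalized counts in TF and 41769 and 47176 in SF. It had 30.7 and 31.6 in TE and 23.6 and 21.5 in SE. This gene ranked between 18 and 31 among all genes of a library in the fresh cells and between 11250 and 12648 in the expanded ones. Its log2 fold change was 10.07 (SE 0.295, edgeR adjusted p = 4.27e-07) in TF minus TE and 10.75 (SE 0.304, adjusted p = 3.09e-07) in SF minus SE, the largest of the 10 members in both origins. Of all tested genes, 99.6% had a smaller fitted change than Fosb in satellite cells and 98.7% in teratoma-derived cells. The table gives genes, not splice forms, so the forms of Fosb were not separated.

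The JUN family had smaller log2 fold changes, and Jun and Jund were already well expressed in expanded cells. Jun (chr4:95049034-95052222, minus strand), the main JNK target among AP-1 proteins, had 35898 and 38185 normalized counts in TF, 2458 and 2309 in TE, 26109.9 and 28940.2 in SF and 5436 and 5232 in SE. Both SE libraries held more Jun than both TE libraries. The log2 fold change was 3.90 (SE 0.215, edgeR adjusted p = 4.29e-06) in TF minus TE and 2.18 (SE 0.199, adjusted p = 3.69e-05) in SF minus SE. The antisense gene Junos overlaps Jun, and whether strand was used in counting is not given in the sources used here.

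Junb (chr8:84974484-84978718, minus strand), which often opposes Jun on shared targets, had 16311 and 14167 normalized counts in TF, 499 and 562 in TE, 19168 and 23917 in SF and 438 and 559 in SE. Its expanded levels overlapped between the origins, and its log2 fold changes were 4.79 (TF minus TE) and 5.25 (SF minus SE). Jund (chr8:70698949-70700616, plus strand), the JUN protein that most resting cells contain, had 10415 and 9588 normalized counts in TF, 1983 and 2209 in TE, 15144 and 18044 in SF and 951 and 1906 in SE. The SE replicates of Jund were far apart, and its log2 fold changes were 2.20 and 3.35, the latter 2.91 to 3.93 over the alternatives tried. Prdx2 overlaps the Junb locus and the antisense gene Gm11175 overlaps Jund, so reads of either pair could have been shared.

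Atf3 (chr1:191170296-191218039, minus strand), a stress-induced partner of JUN proteins and a repressor as a homodimer, had 3974 and 3802 normalized counts in TF, 675 and 493 in TE, 6941 and 7604 in SF and 40.1 and 142 in SE. It was the member whose expanded levels lay farthest apart between origins, with both SE libraries below both TE libraries. The log2 fold change was 2.68 (SE 0.438, edgeR adjusted p = 0.00181) in TF minus TE and 6.14 (SE 0.520, adjusted p = 2.44e-05) in SF minus SE. The value in satellite cells was 5.46 without SE replicate 1 and 7.31 without SE replicate 2.

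Egr1, the zinc finger factor most used as a sign of ERK signaling, had 43397 and 47774 normalized counts in TF, 2979 and 2973 in TE, 68062 and 71293 in SF and 1928 and 1079.5 in SE. It ranked between 10 and 19 among all genes in the fresh libraries. The log2 fold change was 3.88 (SE 0.304, edgeR adjusted p = 2.57e-05) in TF minus TE and 5.34 (SE 0.326, adjusted p = 4.78e-06) in SF minus SE. Egr1 was thus the most counted member in all 4 fresh libraries.

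Egr2 (chr10:67535475-67542188, plus strand), known as the regulator of Schwann cell myelination, had 4186 and 4889.6 normalized counts in TF, 130.3 and 75.6 in TE, 2669 and 2756 in SF and 119 and 162 in SE. Both TF libraries were above both SF libraries, while the expanded levels overlapped. The log2 fold changes of Egr2 were 5.40 (TF minus TE) and 4.08 (SF minus SE). Egr3 (chr14:70077203-70082614, plus strand), which the stretch receptors of muscle need, had 1771 and 1651 normalized counts in TF, 157 and 149 in TE, 1787 and 2046 in SF and 257 and 109 in SE. Its log2 fold changes were 3.43 and 3.20, and the latter became 3.92 without SE replicate 1. Egr4, the remaining member of the family and not among the 10, was at 0 in 6 of the 8 libraries.

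Ier2 (chr8:84661331-84662852, minus strand), a single-exon gene for a nuclear protein without a zipper or zinc finger, had 4122 and 4197 normalized counts in TF, 902 and 1064 in TE, 2934 and 3737 in SF and 328 and 242 in SE. Its SE levels lay below its TE levels. The log2 fold changes of Ier2 were 2.03 in TF minus TE and 3.36 in SF minus SE, the former the smallest of the 10 in that comparison. Jun had the smallest in satellite cells.

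The size of the fresh minus expanded difference itself varied with the origin of the cells for 5 members. The test was the interaction, (SF minus SE) minus (TF minus TE), which called 4.70% of all genes higher and 9.62% lower. Atf3 (log2 3.46, SE 0.612, edgeR adjusted p = 0.00574), Egr1 (1.46, SE 0.385, adjusted p = 0.0332) and Ier2 (1.33, SE 0.306, adjusted p = 0.0187) differed more in satellite cells. Jun (-1.73, SE 0.272, adjusted p = 0.00332) and Egr2 (-1.32, SE 0.378, adjusted p = 0.0450) differed more in teratoma-derived cells. No call was made for Fos (-0.29, adjusted p = 0.599), Fosb (0.68, adjusted p = 0.206), Junb (0.46, adjusted p = 0.376), Jund (1.15, adjusted p = 0.103) and Egr3 (-0.23, adjusted p = 0.827). Atf3 and Jun passed under all 14 alternatives tried, Atf3 at 2.81 without SE replicate 1 and 4.63 without SE replicate 2. Egr1 did not pass without TF replicate 1, TF replicate 2, TE replicate 1 or TE replicate 2 (adjusted p between 0.0748 and 0.124). Ier2 did not pass without TF replicate 1, TF replicate 2 or TE replicate 2 (0.0645, 0.0591 and 0.0950). Egr2 did not pass with median-ratio size factors, with glmTreat, with a replicate block (log2 -1.32, edgeR adjusted p = 0.0580) or without the ribosomal RNA precursor Rn45s. It also did not pass without 6 of the 8 libraries in turn, whose values ran from -1.43 to -0.98. Jund passed without the filter on low counts (1.14, adjusted p = 0.00918), with DESeq2 (1.28, adjusted p = 0.0102) and without SE replicate 2 (1.74, adjusted p = 0.00137).

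**Figure D3:**
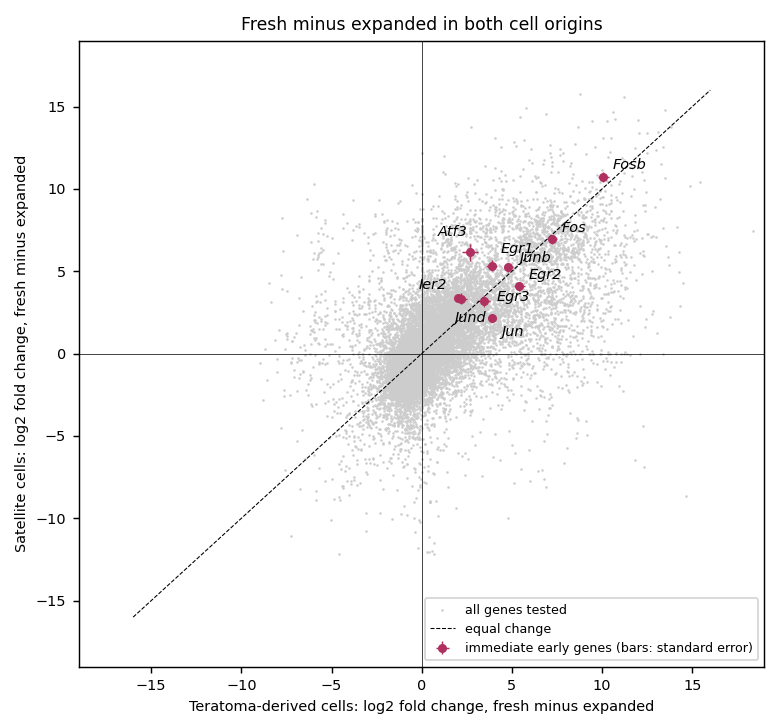
Log2 fold change, fresh minus expanded, in teratoma-derived cells (x axis) against satellite cells (y axis), for the 10 immediate early genes (red, bars show the standard error) and all 17582 tested genes (grey); the dashed line marks equal change. All 10 lie in the upper right, Fosb at 10.07 and 10.75, with Atf3 (2.68 and 6.14) above the line and Jun (3.90 and 2.18) below it.

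The fresh and the expanded groups were also compared with each other across origin, in libraries shared with the interaction. Between the fresh groups (SF minus TF), 9.13% of all genes were called higher and 15.1% lower, with 0 of 10 members higher and 1 lower. That member was Egr2, at -0.90 (SE 0.258, edgeR adjusted p = 0.0312), and the call was lost without either TF or either SF replicate (adjusted p 0.0591 to 0.149), with median-ratio size factors (0.0627) and without Rn45s (0.0626). The other 9 ran from -0.59 (Jun) to 0.75 (Atf3). Of these, Jun was called lower and Junb, Jund and Egr1 higher with DESeq2. Atf3 was called higher without the filter on low counts and with only the groups compared. Between the expanded groups (SE minus TE), 4.07% of all genes were higher and 3.15% lower, with 1 member higher and 2 lower. Jun was higher in SE at 1.14 (SE 0.194, edgeR adjusted p = 0.00750), which was not called without TE replicate 1 (0.123) or TE replicate 2 (0.168). Atf3 was lower in SE at -2.72 (SE 0.456, adjusted p = 0.00710), and Ier2 at -1.81 (SE 0.223, adjusted p = 0.00156), under all 15 alternatives, with Atf3 at -2.07 without SE replicate 1 and -3.89 without SE replicate 2. Egr1 gave -1.01 and was not called (adjusted p = 0.0581), but was called without the filter on low counts (-1.01, adjusted p = 0.00415), with DESeq2 (-0.98, adjusted p = 0.00106) and without SE replicate 1 (-1.49, adjusted p = 0.00496), SF replicate 1 (0.0441) or SF replicate 2 (0.0278).

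Levels of different genes were compared per length, as normalized counts per kilobase of the union of GENCODE M21 exons. This union joins the exons of all annotated forms of a gene, 6243 bases in 13 exons for Fosb. Where the expressed form was shorter than the union, the level per kilobase is too low, so the order of genes is approximate. In TF the order was Fos (14557 ± 930 SD per kilobase, n = 2), Jun (11616 ± 507), Egr1 (10166 ± 690.2), Junb (6623 ± 659), Jund (5996 ± 350.4), Fosb (5600.5 ± 364), Ier2 (2733 ± 34.7), Atf3 (1805 ± 56.5), Egr2 (1335 ± 146) and Egr3 (388 ± 19.2). In SF Egr1 came first (15539 ± 509), before Fos (11317 ± 1156) and Jund (9949 ± 1229.5), and Egr3 was again last (435 ± 41.5). The ranges over the replicates of Junb and Jund, of Junb and Jun, and of Jund and Fos overlapped in SF, and those of Junb and Jund and of Jund and Fosb in TF.

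In TE the per-kilobase order began with Jund (1256 ± 95.7) and Jun (747 ± 33.0), with Egr1 (664 ± 0.853) and Ier2 (646 ± 75.4) overlapping behind them. In SE Jun stood first (1673 ± 45.2), before Jund (856 ± 405) and Egr1 (335 ± 134). Fos lay at 92.5 ± 16.8 in TE and 80.0 ± 0.420 in SE, and Fosb came last in both, at 4.99 ± 0.103 and 3.61 ± 0.243. The ranges of Egr2, Egr3 and Atf3 overlapped in SE, as did those of Egr1 and Junb and of Junb and Ier2. In TE those of Atf3 and Junb and of Egr2 and Egr3 overlapped. The first place thus went to Fos or Egr1 in fresh cells and to Jund or Jun in expanded cells.

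The makeup of each family was taken on the same per-kilobase scale, so the shares carry the same limit. Fos held 68.5% to 69.1% of the summed FOS family (Fos, Fosb, Fosl1, Fosl2) in TF, 46.3% to 48.1% in SF, 25.2% to 30.0% in TE and 8.31% to 18.1% in SE. Fosb held 26.3% to 26.6% in TF and 28.8% to 30.6% in SF, against 1.19% to 1.88% in TE and 0.394% to 0.774% in SE. Fosl1, the FOS protein known from growing cells, took 23.8% to 40.4% in TE and 53.6% to 83.4% in SE. Fosl1 still had more counts in both SF than in both SE libraries (log2 2.66, SE 0.564, edgeR adjusted p = 0.00451), so its larger share in SE did not come with a higher level.

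Within the JUN family Jund held 54.6% to 57.8% in TE, against 24.1% to 25.4% in TF and 35.5% to 35.7% in SF. In SE its share was 23.1% to 37.8% and Jun held 54.2% to 69.2%. Junb held 25.8% to 28.8% in TF and 32.5% to 34.3% in SF, against 7.72% to 10.7% in the expanded libraries. Egr1 held 76.9% to 92.7% of the EGR family in all 8 libraries, with TE between TF and SF.

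**Figure D4:**
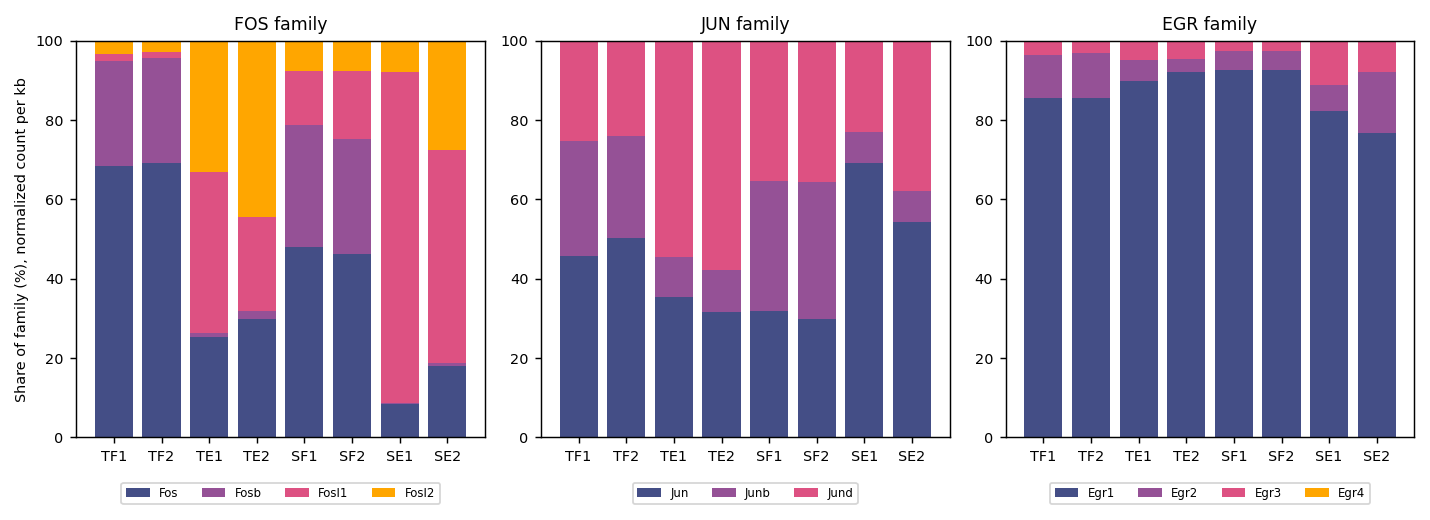
Share (%) of each gene in the summed per-kilobase level of its family, FOS, JUN and EGR, in the 8 libraries. Fos and Fosb fill most of the FOS bar in fresh libraries, Fosl1 holds 53.6% to 83.4% of it in SE, Jund holds 54.6% to 57.8% of the JUN bar in TE, and Egr1 fills most of the EGR bar throughout.

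Other genes known from early or stress responses were followed in lists. Whether such a response took place in these cells was not tested. In the mean of both origins 27.8% of all genes were called higher and 22.4% lower, with a median log2 of 0.21, and each list below is to be read beside these values. Of 9 other AP-1 and small MAF genes, 6 were called higher and 1 lower in fresh cells in the mean of both origins, with a median log2 of 3.50. The smallest adjusted p values belonged to Maff, a small MAF protein (4.71, edgeR adjusted p = 4.37e-07), and Fosl2 (3.16, adjusted p = 1.91e-06). Mafg was lower at -0.47 (adjusted p = 0.0229), a call that median-ratio size factors did not give. Of 6 genes of the Egr4, NAB and NR4A list, 4 were higher and 0 lower. Nr4a1 (6.57, adjusted p = 5.75e-07) and Nr4a3 (6.95, adjusted p = 4.09e-05) are orphan nuclear receptors, and Nr4a1 had 8971 to 17186 normalized counts in the fresh libraries and 50.8 to 171 in the expanded ones.

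Of 14 other early transcription factors, 12 were higher and 0 lower (median 2.17), led by Cebpd, an acute-phase C/EBP factor (5.12, edgeR adjusted p = 2.76e-07), and Csrnp1, a nuclear protein induced by AXIN (5.41, adjusted p = 5.68e-07). Of 15 regulators of RNA decay and growth, 13 were higher and 0 lower (median 2.73), where 27.8% of all genes were higher and 22.4% lower (median 0.21). These included Btg2, an antiproliferative partner of the CCR4-NOT deadenylase (4.18, adjusted p = 1.51e-07), and Ier5 (3.98, adjusted p = 1.90e-07). Of 14 secreted factors and NF-kB feedback genes, 13 were higher and 0 lower (median 3.33). Socs3, a feedback inhibitor of JAK kinases (5.41, adjusted p = 4.07e-07), and Nfkbia, which holds NF-kB in the cytoplasm (3.39, adjusted p = 4.61e-07), led this list.

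Of 13 feedback phosphatases and kinases, 8 were higher and 1 lower (median 1.59), where 27.8% of all genes were higher and 22.4% lower (median 0.21). Trib1, a pseudokinase (4.78, edgeR adjusted p = 1.51e-07), and Sgk1, a serum-induced kinase (4.29, adjusted p = 1.51e-07), were higher, and Dusp4, a nuclear phosphatase of ERK, was lower (-2.59, adjusted p = 8.52e-04). Dusp4 had 114 to 438 normalized counts in fresh libraries and 1102 to 3027 in expanded ones. Of 9 heat shock chaperones, 8 were higher and 1 lower (median 1.29). Dnajb1, an HSP40 cochaperone (4.10, adjusted p = 1.49e-07), and Hspa1b, an inducible HSP70 (9.05, adjusted p = 1.76e-06), were higher and the mitochondrial Hspe1 was lower (-0.73, adjusted p = 0.00222). Hspa1b is nearly identical to Hspa1a, so the split of reads between them is uncertain.

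Of 16 kinases and factors known to act upstream of immediate early genes, 3 were higher and 5 lower in fresh cells. These counts were near the 27.8% and 22.4% of all genes. The other 8 were not called, and the median was -0.24 against 0.21 over all genes. Median-ratio size factors gave 4 higher and 4 lower. Crem, a CRE-binding factor whose short form is itself inducible (2.21, edgeR adjusted p = 1.83e-04), and Elk4, a partner of serum response factor (0.95, adjusted p = 3.36e-04), were higher. Map2k2, which phosphorylates ERK, was lower (-0.84, adjusted p = 6.80e-04).

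**Figure D5:**
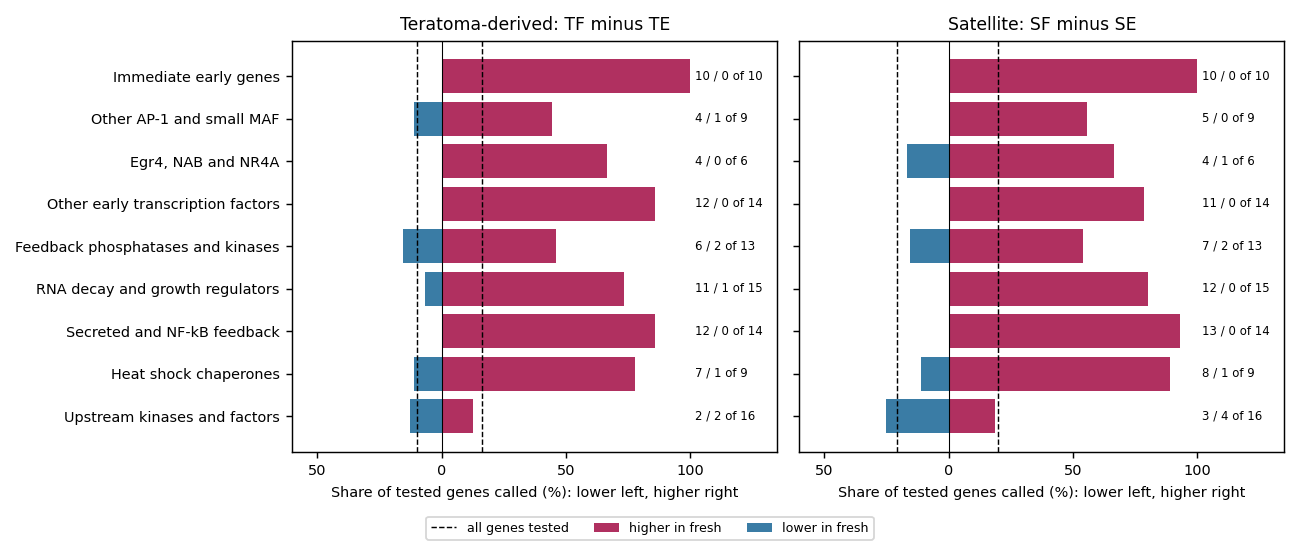
Share (%) of the tested genes of each list called higher (right) or lower (left) in fresh cells, in teratoma-derived cells and in satellite cells; dashed lines mark the shares over all tested genes, 16.2% higher and 9.86% lower in TF minus TE and 19.8% and 20.9% in SF minus SE. The immediate early genes reach 10 of 10 on the right in both panels, while of the 16 upstream genes 2 were higher and 2 lower in teratoma-derived cells and 3 higher and 4 lower in satellite cells.

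The members followed each other closely over the 8 libraries. The correlation (Pearson r on log2(normalized count + 1)) of each member with the mean standardized profile of the 10, of which it is a part, was lowest for Atf3 (0.927), Ier2 (0.935) and Jun (0.937) and highest for Fosb (0.998). The other genes considered numbered 12669, each averaging 50 or more normalized counts, and the 8 most like that profile were Btg2 (r = 0.998), Apod (0.997), Nfia (0.997), Add3 (0.997), Cped1 (0.996), Edn3 (0.996), Zfp36 (0.996) and Ltbp4 (0.996). Btg2 and Zfp36, an RNA-binding protein that promotes mRNA decay, were on the lists above. Apod, Nfia, Add3, Cped1, Edn3 and Ltbp4 were on none of the lists, and Edn3 was at 0 in all 4 expanded libraries. These values describe 8 libraries that fall into fresh and expanded. Of the 12669 genes, 463 had r above 0.95 and 1010 had r above 0.9, the limit that all 10 members passed.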

How the data were processed

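Total RNA from 8 samples was made into libraries with a stranded low-input kit. The authors deposited estimated counts per gene, not normalized, for 24980 symbols. The submitters' processing notes name CASAVA, kallisto 0.44.0, GRCm38 and mm10. Whether strand was used in counting is not given in the sources used here. Kallisto shares reads between similar transcripts, so paralogs can exchange counts, and between 74.4% and 84.4% of a library's values were whole. Groups and replicates came from the sample labels. The labels call the replicates biological but do not say whether they came from separate animals or cultures, so p values measure only the spread between these samples.

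The estimated counts were rounded. The filterByExpr function of edgeR (4.0.16, R 4.3.3) left 17582 genes. TMM factors scaled the libraries, and a quasi-likelihood F test was run on a model with a mean for each of the 4 groups and no replicate term. Contrasts were TF minus TE, SF minus SE, their mean and difference, SF minus TF and SE minus TE. Adjusted p values are Benjamini-Hochberg values over all tested genes. Normalized counts are estimated counts divided by DESeq2 median-ratio size factors (DESeq2 1.42.0). SE is the log2 fold change divided by the square root of F. Standard deviations cover 2 libraries, so the spread is weakly estimated.

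The 10 genes, the lists and the tests were chosen with earlier results of these data known, so no list count is independent support. Beside the 10, the genes named in each list were those with the 2 smallest adjusted p values in the mean of both origins and the smallest in the opposite direction where it passed, marker lists were given by their sums, and 8 genes were named by correlation. Col1a1, Acta2, Malat1, Egr4, Fosl1 and the marker genes at 0 were named, and the family shares computed, after values were seen. Alternatives were median-ratio size factors, no filter, DESeq2, only the groups compared, a replicate block, glmTreat, no Rn45s, and each library left out. Promoters and motifs came from RefSeq GRCm38.p6 and exon lengths from GENCODE M21. The coordinates of Egr1 are not reported here.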

Additional observations from a re-analysis of the deposited data

Results flagged for a closer look

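5 of the 10 immediate early genes differed in their fresh minus expanded log2 fold change between satellite and teratoma-derived cells, by the interaction term of the edgeR fit. Over all genes this term called 4.70% higher and 9.62% lower. Of the 5, only Atf3 and Jun kept their calls under all 14 alternatives, while those of Egr1, Ier2 and Egr2 were lost under some. The difference, satellite minus teratoma-derived, was 3.46 (adjusted p = 0.00574) for Atf3, 1.46 (adjusted p = 0.0332) for Egr1 and 1.33 (adjusted p = 0.0187) for Ier2. It was -1.73 (adjusted p = 0.00332) for Jun and -1.32 (adjusted p = 0.0450) for Egr2. All 4 fresh libraries were above all 4 expanded libraries for each of the 5, as for 19.3% of all tested genes. The sizes of the differences thus varied and not their direction. Atf3 and Ier2 were also lower, and Jun higher, in SE than in TE. In the fresh groups only Egr2 of these was called, and that call was lost under some alternatives. Atf3, Jun and Egr1 were called there only under some alternatives. Groups of 2 libraries are too small for a test of single outlying libraries.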

How the results depend on the processing

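The 10 members kept their direction and their calls in the mean of both origins (140 values over the alternatives), in TF minus TE (150) and in SF minus SE (150). The interaction had 1 of 140 values reversed, 3 newly called and 17 no longer called. SF minus TF had 4 reversed, 12 newly called and 7 no longer called of 150, and SE minus TE had 2, 6 and 2 of 150. The reversed values were Egr3 in the interaction (0.52 without SE replicate 1, with -0.72 to 0.52 over the libraries left out), Egr3 in SF minus TF (-0.0047 without the filter on low counts, -0.036 without TF replicate 2, -0.14 without SF replicate 2 and -0.0019 without SE replicate 2, with -0.14 to 0.14 over the libraries left out), and, without SE replicate 1, Junb (0.051) and Egr3 (-0.51) in SE minus TE, where the libraries left out gave -0.31 to 0.051 and -0.51 to 0.72. None of these was called, and the cause was not tested.

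In the interaction, members called lower went from 2 to 1 with median-ratio size factors, the replicate block, glmTreat and without Rn45s, and ran from 1 to 2 with a library left out. Members called higher went from 3 to between 1 and 4 with a library left out. In SF minus TF, members called lower went from 1 to 0 with median-ratio size factors, glmTreat and without Rn45s, to 2 with DESeq2, and ran from 0 to 2 with a library left out. Members called higher there went from 0 to 1 without the filter and with only the groups compared, to 3 with DESeq2, and ran from 0 to 2 with a library left out. In SE minus TE, members called higher ran from 0 to 1 with a library left out.

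Over all genes, calls lower in TF minus TE went from 1733 to 2667 with only the groups compared and ran from 811 to 2116 with a library left out. Interaction calls higher went from 826 to 1284 without the filter and 1500 with DESeq2, and ran from 457 to 1074 with a library left out, while calls lower (1691) ran from 1010 to 1922. In SF minus TF, calls higher went from 1606 to 2644 with DESeq2 and ran from 932 to 1986 with a library left out, and calls lower (2655) ran from 1693 to 3119. In SE minus TE, calls higher went from 715 to 1358 without the filter and 1257 with DESeq2, and calls lower from 553 to 902 and 865. With a library left out these ran from 381 to 957 and from 272 to 741. The balance of higher against lower calls in SF minus TF (1606 against 2655) shifted with median-ratio size factors (1943 against 2110) and only the groups compared (1708 against 1781), and turned with DESeq2 (2644 against 2475). In SF minus SE (3475 against 3677) it turned with DESeq2 (4937 against 3307), median-ratio size factors (3958 against 3064), no Rn45s (3795 against 3200), only the groups compared (3398 against 2931), no filter (3927 against 3838), and without TE replicate 1 (3356 against 3311) or TE replicate 2 (3372 against 3321). In the interaction it shifted with DESeq2 (1500 against 1918). In the mean of both origins (4896 against 3939) the excess of higher calls was lost only without SF replicate 1. Median-ratio size factors moved the median log2 of all genes from 0.21 to 0.33 in the mean of both origins and from 0.23 to 0.43 in SF minus SE. It moved further, to 0.85 and 0.88, without the filter, and to 1.03 and 1.10 with DESeq2. These 2 settings also kept genes with low counts. A left-out library leaves a group of 1, assumed to vary like the others.

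Same-numbered replicates did not deviate together (correlations from -0.026 to 0.076 over 17582 genes), so the numbers were not taken as pairs. The replicate block changed 1 member call, that of Egr2 in the interaction (members lower 1, adjusted p = 0.0580).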
